A study of Mus musculus with 8 samples.

Results

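The genes described here encode homeodomain proteins of the TALE class that pair with HOX proteins: Meis1, Meis2 and Meis3, their relatives Pknox1 and Pknox2, and the Pbx family members Pbx2 and Pbx3. They were measured in the posterior part of Cdx2 null mutant and wild type mouse embryos of the strain C57Bl6J/CBA at 7/8 and at 4/5 somites. Members were all probes on the array that the files list under these 7 gene names and that are not controls, which gave 15 of 41174 probes and 7 of 27827 gene names. A probe counted as measured where 1 genotype's channel stood well above background at 1 stage on 3 or more of its 4 arrays. This held for 12 of the 15 probes, which cover all 7 genes, and for 21907 probes in all.

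Each group was a single RNA pool of 20 embryos, so there were 4 pools: null and wild type at 7/8 somites, and null and wild type at 4/5 somites. The tissue lay between the youngest somite and the base of the allantois. The allele behind the null label, and how null embryos reached these stages, are not named in the labels. Null and wild type RNA of a stage shared each of its 4 arrays in 2 colours. The null pool carried Cy3 on arrays 1 and 3 and Cy5 on arrays 2 and 4, and arrays 3 and 4 were a technical repeat of arrays 1 and 2 on another slide. Every ratio below is the log2 of null over wild type, and every SD is that of 4 arrays of the same RNA and is therefore technical. The test over both stages took 1 value per stage (n = 2), with limma and Benjamini-Hochberg adjustment over the 21907 probes at a limit of 0.05. Within a stage there was no second pool and no test, and a probe was listed as different when it was at least 1.5-fold apart with the same sign on all 4 arrays.

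MEIS and PKNOX proteins form complexes with PBX proteins, and this contact helps to bring PBX into the nucleus and keep it there. The resulting complexes bind DNA together with HOX proteins and sharpen the choice of sites that HOX proteins make along the body axis. In the posterior embryo, CDX2 is a transcription factor that helps to set Hox gene expression and axial growth. In vertebrate limbs and other tissues, Meis genes are known to respond to retinoic acid, a signal made in the trunk mesoderm of the embryo.

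Probes are shown with their mm9 positions as the files give them. A probe reads only the stretch of transcript that it matches. The sequences below show this stretch for the Meis1 probe A_52_P670612 and for the Meis3 probe. The sequence of the other Meis1 probe, which had the larger ratio, is not shown. The Meis1 probe A_52_P670612 lies on chromosome 11 at 18911247 to 18911306 (minus strand), 130.0 kb from the other Meis1 probe, A_52_P26195, at 18781206 to 18781265. The only Meis3 probe, A_52_P575691, lies on chromosome 7, and its 60 bases are spread over 16770024 to 16770812 (plus strand), so that it crosses an intron.
Meis1 probe A_52_P670612: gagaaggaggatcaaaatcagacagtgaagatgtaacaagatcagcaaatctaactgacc
Meis3 probe A_52_P575691: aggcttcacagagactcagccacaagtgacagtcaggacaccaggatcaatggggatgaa

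The 250 bases before the start of Meis1, Meis2 and Meis3 are shown because these 3 genes are the ones whose ratios passed the test. They come from RefSeq on build GRCm38.p6, which matched 4 of the 7 genes. Capitals mark matches to TTTAT or its reverse complement ATAAA, a pattern of CDX type.
Meis1, chr11:19018970-19019219, minus strand: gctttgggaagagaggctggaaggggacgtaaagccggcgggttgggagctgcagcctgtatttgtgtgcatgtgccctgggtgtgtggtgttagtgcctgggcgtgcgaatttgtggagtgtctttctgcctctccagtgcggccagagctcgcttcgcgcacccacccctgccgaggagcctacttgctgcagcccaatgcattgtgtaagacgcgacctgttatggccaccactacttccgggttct
Meis2, chr2:116064620-116064869, minus strand: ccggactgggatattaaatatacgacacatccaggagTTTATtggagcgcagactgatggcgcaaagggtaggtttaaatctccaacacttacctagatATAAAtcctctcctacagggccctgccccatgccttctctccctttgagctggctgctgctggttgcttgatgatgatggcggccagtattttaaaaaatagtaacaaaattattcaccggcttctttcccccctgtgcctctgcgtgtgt
Meis3, chr7:16175145-16175394, plus strand: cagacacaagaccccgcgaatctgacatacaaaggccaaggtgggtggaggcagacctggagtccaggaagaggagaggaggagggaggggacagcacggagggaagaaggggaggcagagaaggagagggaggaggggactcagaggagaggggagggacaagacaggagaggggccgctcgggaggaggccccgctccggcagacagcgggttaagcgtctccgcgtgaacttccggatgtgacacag
Meis2 had 1 TTTAT match 213 bases before its start and 1 ATAAA match 151 bases before it, and the windows of Meis1, Meis3 and Pbx2 had none. The pattern was present in 38.1% of 27025 promoters of the same length. The MEIS pattern TGACAG (in 16% of promoters on either strand), the pattern of joint PBX and HOX binding TGATNNAT (7.91%) and the retinoic acid receptor core element AGGTCA (13.8%) had no match in the 4 windows. These are letter matches in a short window and were not measured as binding sites.

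Over both stages, Meis1 and Meis2 were higher in the null pools at every probe, and Meis3 was lower. Of the 12 probes, 5 passed the test as higher, all of Meis1 or Meis2, against 4.94% of all 21907 probes, and 1 passed as lower, that of Meis3, against 3.48%. The 2 Pbx genes and 2 Pknox genes did not pass at any of their 6 measured probes. The same sign held on all 8 arrays for the 5 higher probes (10.6% of all probes), and for Meis3 and Pknox1 on the lower side (8.16%). Of all 1845 probes called (8.42%), 58.6% were higher, and with median centring in place of loess 765 were called and 78.3% of them were higher.

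**Figure D1:**
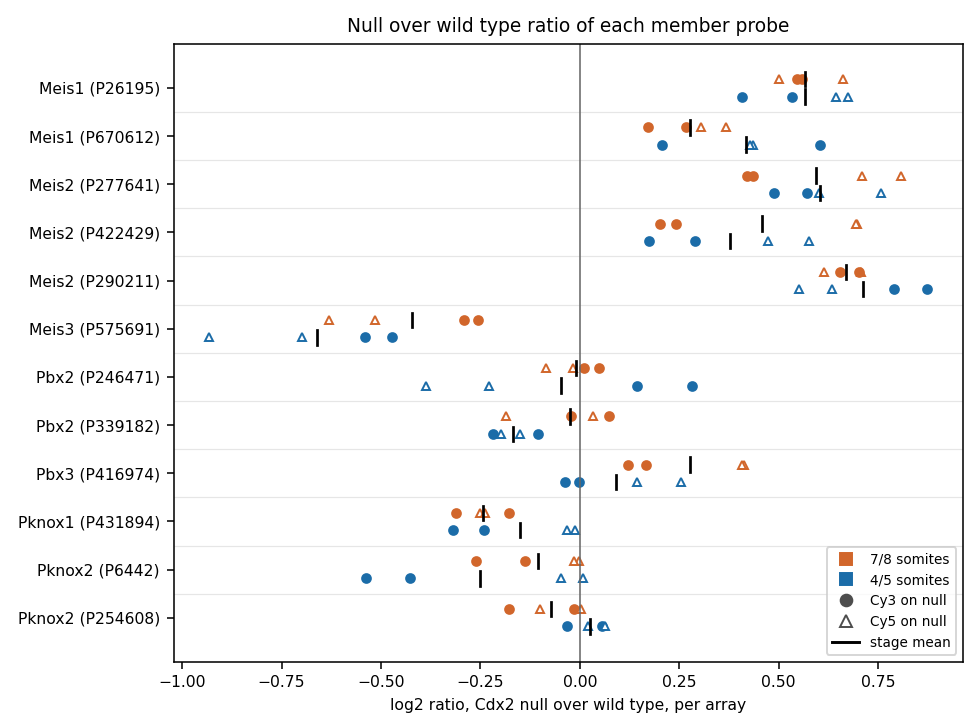
Log2 ratio of null over wild type (x axis) on each of 8 arrays for the 12 measured probes (rows), with colour for the stage, filled circles for arrays with Cy3 on the null pool, open triangles for Cy5, and bars at stage means. All points of Meis1 and Meis2 lie right of 0 and all points of Meis3 and Pknox1 lie left of it, while the first Pbx2 probe splits by dye at 4/5 somites.

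Meis1 encodes a MEIS protein that serves as a cofactor of HOX proteins and is also known from leukaemia. Its brighter probe, A_52_P26195, had log2 ratios of 0.56, 0.66, 0.55 and 0.50 on arrays 1 to 4 at 7/8 somites and of 0.53, 0.67, 0.41 and 0.65 at 4/5 somites. The null pool was higher on every array, and the ranges of the stages overlapped. The mean was 0.57 ± 0.07 at 7/8 and 0.57 ± 0.12 at 4/5 somites. Over both stages this is a 1.48-fold higher level in null (0.57, SE 0.08, 95% interval 0.39 to 0.74, limma adjusted p = 0.000356). In log2 intensity the pools ranked null at 7/8 (8.31 ± 0.12), null at 4/5 (8.28 ± 0.17), wild type at 7/8 (7.75 ± 0.06) and wild type at 4/5 somites (7.72 ± 0.06). The 2 null pools did not differ beyond their spread, and neither did the 2 wild type pools, while each null pool stood above each wild type pool on all arrays.

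The dimmer Meis1 probe, A_52_P670612, pointed the same way with smaller values. It had 0.27, 0.31, 0.17 and 0.37 at 7/8 somites (mean 0.28 ± 0.08) and 0.60, 0.44, 0.21 and 0.43 at 4/5 somites (mean 0.42 ± 0.16). All 8 values were above 0, and the wild type channel was well above background on 3 of 4 arrays at 7/8 somites. Over both stages its ratio was 0.35 (SE 0.09, limma adjusted p = 0.0174), a call that was lost in 9 of 18 alternative settings (adjusted p 0.0540 to 0.154). In log2 intensity it was at 6.94 ± 0.11 in null and 6.66 ± 0.09 in wild type at 7/8 somites, and at 7.13 ± 0.22 in null and 6.71 ± 0.08 in wild type at 4/5 somites. From the scanner's own processed signals the same probe gave 0.90 at 7/8 and 0.79 at 4/5 somites.

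Meis2, which encodes a close relative of MEIS1 and is known to be induced by retinoic acid in mouse embryonal carcinoma cells, had 3 measured probes. A_52_P277641 (chromosome 2 at 115689066 to 115689125, minus strand) had ratios of 0.42, 0.81, 0.44 and 0.71 at 7/8 somites and of 0.49, 0.76, 0.57 and 0.60 at 4/5 somites. At 7/8 somites the 2 arrays with Cy5 on the null pool were the high ones. The stage means were 0.59 ± 0.20 and 0.60 ± 0.11 in the same order, and the test over both stages gave 0.60 (SE 0.08, 1.52-fold, limma adjusted p = 0.000212).

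A_52_P290211 lies on chromosome 2 at 115821828 to 115821887 (minus strand), 132.7 kb from A_52_P277641, and the files list it under a cDNA clone only. Its ratios were 0.65, 0.71, 0.70 and 0.61 at 7/8 somites (mean 0.67 ± 0.04) and 0.87, 0.63, 0.79 and 0.55 at 4/5 somites (mean 0.71 ± 0.15). This was the highest mean among the 12 probes, and the 4 values at 7/8 somites lay within the range of those at 4/5 somites. Over both stages null was 1.61-fold higher (0.69, SE 0.08, limma adjusted p = 5.36e-05). It and A_52_P277641 were the 2 of 12 probes at least 1.5-fold higher in null at 7/8 somites (1.21% of all probes) and again at 4/5 somites (1.07%). A_52_P290211 stayed above the 1.5-fold limit (0.585 on the log2 scale) with either dye order alone, with 0.68 for Cy3 and 0.66 for Cy5 on null at 7/8 and 0.83 and 0.59 at 4/5 somites. A_52_P277641 fell below the limit with the Cy3 arrays alone (0.43 at 7/8 and 0.53 at 4/5 somites), without array 2 of the stage (0.52 and 0.55 in the same order) and, at 7/8 somites, also without array 4 (0.55), on the repeat pair alone (0.57) and without background correction (0.58).

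The remaining probe, A_51_P422429, starts 4 bases beyond the end of A_52_P277641 (115689130 to 115689189) and gave lower and more dye-dependent values. Its ratios were 0.24, 0.70, 0.20 and 0.70 at 7/8 somites (mean 0.46 ± 0.28) and 0.29, 0.47, 0.17 and 0.58 at 4/5 somites (mean 0.38 ± 0.18). Both arrays with Cy3 on null were lower than both with Cy5 at each stage, with means of 0.22 against 0.70 at 7/8 and of 0.23 against 0.52 at 4/5 somites. Over both stages the ratio was 0.42 (SE 0.08, limma adjusted p = 0.00467), and with the Cy3 arrays alone it was 0.23 and did not pass (adjusted p = 0.196). The 2 probes share their target transcript and are not separate measurements of different RNA.

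The order of the pools for Meis2 was the same at these 3 probes: null at 4/5, null at 7/8, wild type at 4/5 and wild type at 7/8 somites. At A_52_P290211 the log2 intensities in that order were 10.06 ± 0.12, 9.91 ± 0.05, 9.35 ± 0.10 and 9.24 ± 0.08. Both null pools exceeded both wild type pools by more than the spread of the arrays, and the arrays of the 2 stages overlapped within each genotype at this probe. At A_52_P277641 the null pools themselves did not overlap, with 11.89 ± 0.04 at 7/8 against 12.15 ± 0.06 at 4/5 somites.

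Meis3 encodes the remaining MEIS protein, known in Xenopus for its part in hindbrain patterning. Its ratios were -0.29, -0.63, -0.26 and -0.51 on arrays 1 to 4 at 7/8 somites and -0.47, -0.93, -0.54 and -0.70 at 4/5 somites. Null was lower on all 8 arrays, and within each stage the 2 arrays with Cy5 on null gave the lower ratios. The mean was -0.42 ± 0.18 at 7/8 and -0.66 ± 0.20 at 4/5 somites, where it was the 1 of 12 probes at least 1.5-fold lower in null (0.954% of all probes), and none of the 12 was at 7/8 somites (0.927%). At 4/5 somites its size was under that limit with the Cy3 arrays alone (-0.51), without background correction (-0.51), with uneven backgrounds kept (-0.54) and without array 2 (-0.57). Over both stages the ratio was -0.54 (SE 0.09, limma adjusted p = 0.000876). The call was lost without background correction (adjusted p = 0.0713), with median centring (0.0600) and with the Cy3 arrays alone (0.0628).

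In log2 intensity, Meis3 was at 7.62 ± 0.08 in null and 8.04 ± 0.13 in wild type at 7/8 somites, and at 7.58 ± 0.15 in null and 8.24 ± 0.08 in wild type at 4/5 somites. The null pools did not differ beyond their spread. In wild type the difference of 7/8 minus 4/5 somites was -0.20, with overlapping arrays. The stage means of the ratio differed by less than 1.5-fold.

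**Figure D2:**
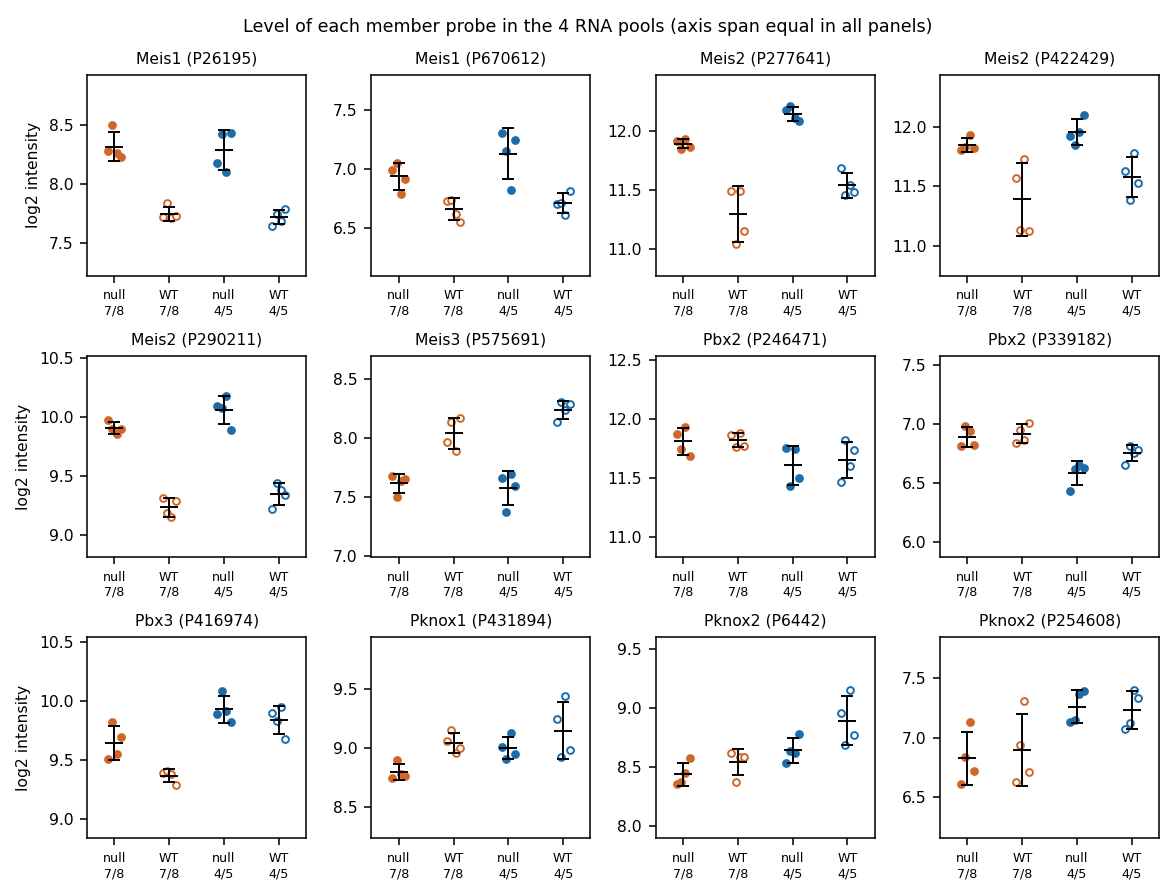
Log2 channel intensity after normalization (y axis) in the 4 RNA pools (x axis) for each of the 12 measured probes, with a point per array and bars for mean ± SD of 4 arrays; levels are not comparable between panels. The null pools of Meis1 P26195 and Meis2 P290211 stand above both wild type pools and those of Meis3 below them, while the genotypes overlap at the first Pbx2 probe and at both Pknox2 probes.

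Pknox1 encodes a MEIS relative, also called PREP1, that binds PBX proteins and is broadly expressed in embryos. Its ratios at A_52_P431894 (chromosome 17 at 31744266 to 31744325, plus strand) were -0.31, -0.25, -0.18 and -0.24 at 7/8 somites and -0.24, -0.01, -0.32 and -0.03 at 4/5 somites. All 8 were below 0, and the 2 arrays with Cy5 on null at 4/5 somites were close to it. The means were -0.24 ± 0.05 and -0.15 ± 0.15 in the same order. Over both stages the ratio was -0.20 (SE 0.09, 95% interval -0.38 to -0.02) and did not pass (limma adjusted p = 0.188). In log2 intensity the pools were at 8.80 ± 0.07 in null and 9.04 ± 0.08 in wild type at 7/8 somites, with no overlap of arrays, and at 8.997 ± 0.09 in null and 9.15 ± 0.24 in wild type at 4/5 somites, with overlap.

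Pknox2, the paralogue also called PREP2, had 2 measured probes that did not pass. A_52_P6442 (chromosome 9 at 36698752 to 36698811, minus strand) had -0.26, -0.00, -0.14 and -0.01 at 7/8 somites and -0.43, -0.05, -0.54 and 0.01 at 4/5 somites. The low values were all from arrays with Cy3 on null, and the Cy5 arrays were near 0. In log2 intensity it was at 8.44 ± 0.10 in null and 8.54 ± 0.11 in wild type at 7/8 somites, and at 8.64 ± 0.10 in null and 8.89 ± 0.21 in wild type at 4/5 somites, overlapping at both stages. Over both stages its ratio was -0.18 (95% interval -0.36 to 0.01, limma adjusted p = 0.258). At A_51_P254608 the stage means were -0.07 ± 0.08 at 7/8 and 0.03 ± 0.04 at 4/5 somites (both stages -0.02, 95% interval -0.20 to 0.16, limma adjusted p = 0.934). Another probe, A_52_P637756, was not well above background in any pool.

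The PBX proteins are the partners that MEIS and PKNOX proteins bind. At the bright Pbx2 probe A_51_P246471 (chromosome 17 at 34733355 to 34733414, plus strand) the ratios were 0.01, -0.02, 0.05 and -0.08 at 7/8 somites and 0.28, -0.39, 0.14 and -0.23 at 4/5 somites. At 4/5 somites the sign followed the dye, positive with Cy3 and negative with Cy5 on the null pool. The mean over both stages was -0.03 (95% interval -0.21 to 0.15, limma adjusted p = 0.914), and its sign turned in 4 of 19 alternative settings. Its log2 intensity was 11.81 ± 0.11 in null and 11.82 ± 0.06 in wild type at 7/8 somites, and 11.61 ± 0.17 in null and 11.66 ± 0.15 in wild type at 4/5 somites. The second Pbx2 probe, A_52_P339182, 1.5 kb away, gave -0.10 (95% interval -0.28 to 0.09, limma adjusted p = 0.608), with its null channel well above background on 2 of 4 arrays at 4/5 somites.

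Pbx3 was measured at A_51_P416974 (chromosome 2 at 34027483 to 34027542, minus strand). Its ratios were 0.12, 0.41, 0.17 and 0.41 at 7/8 somites (mean 0.28 ± 0.16) and -0.00, 0.25, -0.04 and 0.15 at 4/5 somites (mean 0.09 ± 0.14). The Cy5 arrays were again the high ones, and the arrays of the 2 stages overlapped. Over both stages it was 0.18 (95% interval -0.00 to 0.37, limma adjusted p = 0.245). In log2 intensity Pbx3 was at 9.65 ± 0.14 in null and 9.37 ± 0.05 in wild type at 7/8 somites, where the arrays did not overlap, and at 9.93 ± 0.11 in null and 9.84 ± 0.12 in wild type at 4/5 somites, where they did. The other 2 Pbx3 probes, which the files list under cDNA clones, were not well above background in any pool, so they give no ratio.

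Between stages, none of the 12 probes had ratios at least 1.5-fold apart (1.05% of all probes had such a gap with no overlap of arrays), and the arrays of the 2 stages overlapped in ratio at all 12 (18.4% of all probes did not overlap). Within a genotype, none of the 12 differed by at least 1.5-fold between 7/8 and 4/5 somites without overlap of arrays, in null (1.57% of all probes) or in wild type (1.27%). Among these smaller differences of log2 level, 7/8 minus 4/5 somites, Pbx3 had -0.28 in null with overlapping arrays and -0.47 in wild type without overlap. Pknox2 at A_51_P254608 had -0.44 in null and -0.34 in wild type, with overlapping arrays in both. Pbx2 at A_52_P339182 had 0.31 in null and 0.17 in wild type, without overlap in either. Meis1 at A_52_P26195 was level between stages, with 0.03 in each genotype. The 2 stages were on different arrays and there was 1 pool per stage, so these differences have no test.

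**Figure D3:**
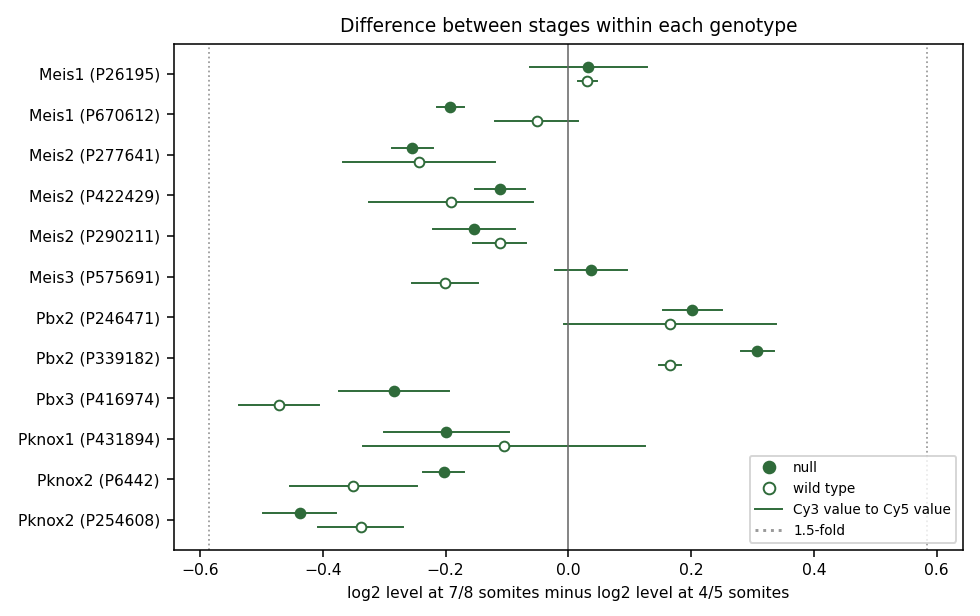
Log2 level at 7/8 minus that at 4/5 somites (x axis) for the 12 measured probes (rows) in null (filled) and wild type (open), with a line joining the value from Cy3 channels and that from Cy5 channels and dotted lines at 1.5-fold. All points lie inside the dotted lines, with Pbx3 in wild type closest to the lower one.

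The genes whose 8 array ratios were nearest to those of a Meis probe were found by the root mean square difference in log2 ratio over all measured probes outside the 7 genes. For Meis1 A_52_P26195 they were the hyaluronan synthase gene Has2 (0.0577), the G protein subunit gene Gng12 (0.0683) and Lgi2 (0.0727). For Meis2 A_52_P277641 they were 8430427H17Rik (0.0824), Spsb4 (0.0833) and the PDGF receptor gene Pdgfrb (0.0886), and for A_52_P290211 Cdo1 (0.0795), Spink3 (0.0852) and the nucleoside transporter gene Slc29a1 (0.0877). For Meis3 they were Cited1 (0.0887), OTTMUSG00000016748 (0.0896) and Arid3b (0.0946). The different Meis probes had no nearest gene in common.

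The remaining genes of the system were counted with the brightest measured probe for each gene, where 5.65% of 15305 genes passed as higher and 3.68% as lower, with a median ratio of -0.01. Of the 9 other TALE homeobox genes on the list, 7 were measured, and 2 passed, both higher: Irx1 (0.94, SE 0.08, limma adjusted p = 2.85e-06) and Irx2 (0.84, SE 0.08, limma adjusted p = 8.32e-06), neighbouring Iroquois genes. The median of the 7 was 0.05. Of 7 genes for proteins that bind PBX or MEIS proteins, among them corepressors, histone deacetylases and coactivators, 1 passed, the corepressor gene Ncor1 (-0.32, limma adjusted p = 0.0380), and their median was -0.03.

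The HOX partners themselves are given by their position in the clusters. Of 12 Hox genes of groups 1 to 4, 2 passed as lower (Hoxd4, -1.16, and Hoxd1, -0.41), and the median was -0.11. Of 10 measured genes of groups 5 to 8, 1 passed as higher (Hoxa5, 0.75) and 6 as lower, led by Hoxa7 (-1.74), Hoxc6 (-1.13) and Hoxb8 (-0.63), with a median of -0.35. Of 8 measured genes of groups 9 to 13, 6 passed as lower and none as higher, led by Hoxc9 (-1.55) and Hoxb9 (-1.34), with a median of -0.84.

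Of 16 measured genes for retinoic acid synthesis, clearance and response, 9 passed as higher and 3 as lower, with a median of 0.31. The synthesis enzyme gene Aldh1a2 was higher in null (1.06), as were the receptor gene Rarb (0.77) and Stra8 (0.68), which retinoic acid is known to induce. The clearance enzyme genes went both ways, with Cyp26a1 lower (-0.82) and Cyp26b1 higher (0.33). Crabp1 (-0.63) and the receptor gene Rarg (-0.35) also passed as lower.

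**Figure D4:**
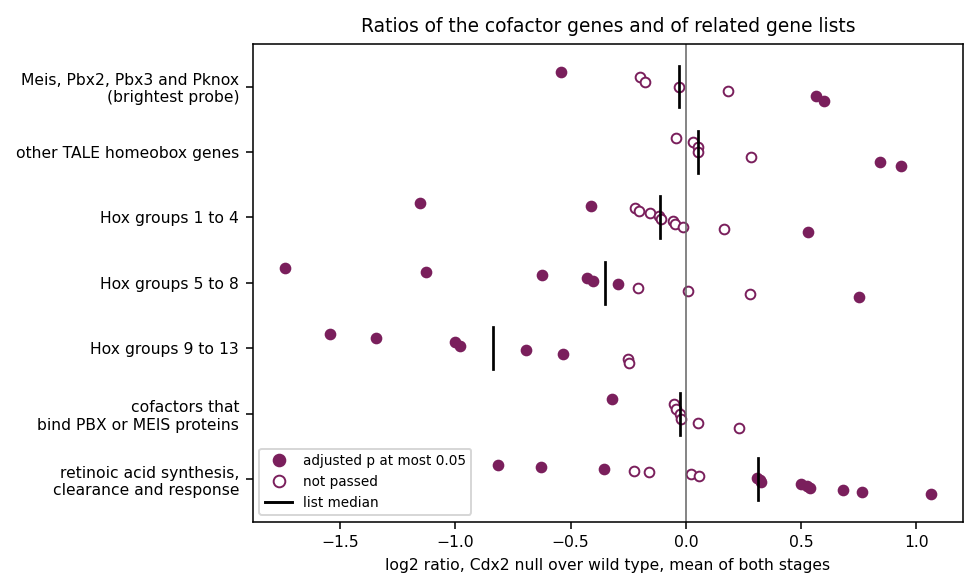
Log2 ratio of null over wild type over both stages (x axis) for each measured gene of the cofactor set and of 6 related lists (rows), filled where the limma adjusted p is at most 0.05, with a bar at each list's median. Hox groups 9 to 13 lie wholly left of 0, Meis1 (0.57) and Meis2 (0.60) lie right of 0 but left of Irx1 (0.94) and Irx2 (0.84), and Meis3 is the filled point of the cofactors on the left.

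The mutated gene was lower in the null pools: Cdx2 gave a ratio of -1.39 over both stages (SE 0.09, limma adjusted p = 1.65e-07), and the labels do not tell whether the probe lies within the deleted sequence. In a single channel of 1 array, 46.5% to 58.9% of the probes stood well above background. Across probes, ratios of arrays of the same stage correlated at 0.856 to 0.918 where the dyes ran the same way and at 0.477 to 0.516 where they were swapped. Arrays of different stages correlated at 0.498 to 0.591 where the dyes ran the same way and at 0.235 to 0.307 where they were swapped, so dye order went with the ratios about as much as shared RNA did. No spot of the 7 genes was marked as an outlier, as saturated or as having an uneven background.

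In bulk tissue a smaller share of a cell type and less RNA per cell cannot be told apart, and markers of several cell types moved with genotype. Of 4 measured somite markers, 3 passed as higher, with summed intensities of 2489 to 2862 in null against 2228 to 2372 in wild type at 7/8 somites and of 3957 to 4289 in null against 1996 to 2050 in wild type at 4/5 somites, while Meox2, Pax1, Pax3 and Myf5 were below the background limit. Of 7 visceral endoderm markers, 5 passed as higher, with sums of 23762 to 24495 in null against 14700 to 15671 in wild type at 7/8 somites and of 39146 to 43374 in null against 23133 to 25074 in wild type at 4/5 somites. Among the lower ones were 3 of 6 endothelial markers, with sums of 2995 to 3554 in null against 5288 to 6607 in wild type at 7/8 somites and of 3072 to 3356 in null against 3821 to 4059 in wild type at 4/5 somites, and Pecam1 below the limit. Passed as lower were also 2 of 8 caudal, 1 of 8 lateral and intermediate mesoderm and 1 of 5 red cell markers, and as higher 1 of 5 neural tube markers. The part of these cell types in the Meis ratios was not tested. All 8 caudal markers, which mark the labelled tissue, were measured. Their sums overlapped between genotypes at 7/8 somites, with 26048 to 27783 in null and 23694 to 27343 in wild type. At 4/5 somites they were lower in null, with 20952 to 22333 against 27297 to 30506 in wild type.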

How the data were processed

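The deposited scanner files hold mean spot and median background brightness per channel as intensity values, with no normalization, per the file headers. The deposited log ratio divides processed Cy5 by Cy3 signals on the log10 scale, per the file headers, and the deposited matrix holds the same log10 values turned to null over wild type (equal at 45018 spots on each of 8 arrays, tolerance 1e-05, median 0). Agilent Feature Extraction made these files, in version 9.5.3 per the submitters' processing notes and 10.5.1.1 per the file headers. RNA was amplified linearly and labelled, per the labels' protocols.

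Direction came from the genotype that the labels give each dye. Files were read with the R package data.table, version 1.17.8. Local background was removed by normexp with an offset of 50 (limma 3.58.1 under R 4.3.3), and a loess fit in which control spots had weight 0 normalized each array. The 58 spots of array 1 at 4/5 somites with an uneven background took the array's median background, and 1184 outlier spots (0.341%) were left out. Channel levels were normalized by Aquantile. The test used lmFit and eBayes on 1 value per stage (1 residual and 14.92 prior degrees of freedom). The spread common to all probes thus sets most of each p-value, and the error term is the gap between the values of the 2 stages. The test was also run on simulated data. Their spread was drawn from the same fitted model without dye effects, so that run cannot check the p-values for these pools. Slides were read from the file headers and match the labels' original and repeat arrays. Named genes are all members and Cdx2, at most 4 called genes per list with the largest ratios, and the 3 nearest genes of each probe with a stage mean of at least 0.5. Cyp26b1, Crabp1 and Rarg are named in addition. The members and lists were chosen with earlier results of these data known. Not every called gene of the lists is reported here. Probe positions are on mm9. Exon and UTR annotation on that build was not used here.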

Additional observations from a re-analysis of the deposited data

How the results depend on the processing

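Meis1 A_52_P26195, Meis2 A_52_P277641 and Meis2 A_52_P290211 kept their direction and their call in all 19, 19 and 18 alternatives run, with ratios of 0.46 to 0.75, 0.48 to 0.72 and 0.63 to 0.78. Meis2 A_51_P422429 lost its call in 2 of 18 (no background correction, adjusted p = 0.0553, and Cy3 arrays alone, 0.196), Meis3 in 3 of 19 and Meis1 A_52_P670612 in 9 of 18, with no change of sign. Only Pbx2 A_51_P246471 changed sign, to 0.06 with median centring, 0.03 and 0.00 without replicate 2 or 4 of 4/5 somites (range over single arrays left out -0.08 to 0.03), and 0.12 with Cy3 arrays alone. Within a slide, the 6 called Meis probes passed on the original pairs alone (Meis1 A_52_P26195 0.61, Meis2 A_52_P290211 0.72, Meis3 -0.58), on the repeat pairs alone (0.52, 0.66 and -0.50) and with slide as a replicate block (0.57, 0.69 and -0.54). The block test counts the original and the repeat pair of a stage, which carry the same RNA, as separate values, so technical repeats enter its p-values. The Cy3 and Cy5 subsets were chosen after seeing the data.

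The count of 1845 called probes was 345 without background correction, 812 with uneven backgrounds kept, 765 with median centring and 664 with no filter on dim probes. It was 3110 with slide as a replicate block, where pairs with the same RNA counted as separate values. Leaving out 1 array gave 942 to 2168, with 942 and 1062 without replicate 2 or 4 of 4/5 somites and 964 and 1090 without replicate 2 or 4 of 7/8 somites. The cause was not tested. Stage means and differences between stages were recomputed for the measured member probes and for Cdx2. Of these 520 values, 493 moved by less than the technical SD and 27 by more. Leaving out 1 array, or keeping 2 of 4, cannot move a stage mean by that SD, so the 493 do not measure stability. No called stage mean changed sign, which such subsets could not bring about, because a called mean had the same sign on all 4 arrays. Differences between stages were not called. With 1 pool per genotype and stage, the spread between embryos or pools is not measured. Signal near background limits the dimmer Meis1 and Pbx2 probes.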
